A study of Mus musculus with 2 samples.

Results

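The genes described here encode ubiquitin-conjugating enzymes and deubiquitinases. They were taken as every gene symbol that begins with Ube2, with Usp and a digit, with Otub or Otud, or with Uchl, leaving out Ube2n, Ube2c, Usp18 and Usp29. The rule used no measured value and found 104 of the 23562 genes in the table. By family these were 35 Ube2, 54 Usp, 10 Otub and Otud and 5 Uchl genes. The rule goes by name, so it also took Usp6nl, which encodes a GTPase-activating protein for Rab proteins, Ube2cbp, which encodes a ubiquitin ligase, and Uchl1os, an antisense RNA.

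By their labels, the 2 libraries came from the mouse mammary tumour cell line AS0574. LL3 cells (Rnf8-null) carried the genotype Rnf8-/-;Trp53Δ/Δ, and LL3WT cells (Rnf8-complemented) carried the same alleles with Rnf8 put back, so by their labels both forms lack endogenous Rnf8 and Trp53. The sources used here do not say whether either form was a clone, what drove the added Rnf8, or the age and sex of the source mouse. With 1 library for each form, the differences have no replicate check, and p-values were not computed. Intervals are exact 95% limits on read counts and cover counting error only.

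Ubiquitin is passed from an E1 activating enzyme to an E2 conjugating enzyme, and an E3 ligase such as RNF8 then directs the E2 to a substrate. With many ligases, but not all, the choice of E2 sets which kind of chain is built. Deubiquitinases, of the Usp, Otu and Uch classes among others, cut ubiquitin off again. At DNA double-strand breaks RNF8 works with the E2 UBE2N, which is not among the genes described here, and several deubiquitinases reverse the histone marks it starts. Related E2s carry ubiquitin-like modifiers such as NEDD8 and ISG15 in place of ubiquitin.

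The libraries held 57263401 counted reads for LL3 and 48607808 for LL3WT cells, and the 104 genes took 0.609% of them in LL3 and 0.695% in LL3WT cells. Rnf8 stood at 10.5 RPKM (counted reads divided by gene length and library total) in LL3 and 596 RPKM in LL3WT cells, 56.7-fold lower in LL3 (interval 53.5 to 60.0). The 1224 reads left in LL3 cells put it above the median of 9.78 RPKM over all measured genes there. Which part of Rnf8 is deleted is not known from the sources used here, so these reads do not check the null label. The libraries stood apart in cell type markers. All 9 listed epithelial markers passed the 2-fold rule given further on, higher in LL3 cells, with a summed level of 6280 RPKM in LL3 and 1.16 RPKM in LL3WT cells, so these defining markers of mammary epithelium were near 0 in LL3WT cells. Of 9 mesenchymal and fibroblast markers, 4 of the 5 measured were lower in LL3 cells, with sums of 378 RPKM in LL3 and 937 RPKM in LL3WT cells. Vim, the measured marker within 2-fold, made up most of both sums, at 376 RPKM in LL3 and 725 RPKM in LL3WT cells. Of the 4 lower markers, Col3a1 had 0.034 RPKM in LL3 and 140 RPKM in LL3WT cells. Pdgfrb had 0.039 RPKM in LL3 and 46.6 RPKM in LL3WT cells. The 8 leukocyte markers found summed to 17.8 RPKM in LL3 and 11.4 RPKM in LL3WT cells, with 1 measured, Cd68. The defining leukocyte gene Ptprc had 0 reads in LL3 and 1 read in LL3WT cells, and the 4 endothelial markers together reached 0.264 RPKM in LL3 and 0.774 RPKM in LL3WT cells. The adipocyte marker Fabp4 had 6 reads in LL3 and 2878 reads in LL3WT cells, while Adipoq had 0 reads in LL3 and 2 in LL3WT cells. Whether both libraries come from 1 line was not tested, and Rnf8 status and any other difference between the 2 libraries cannot be told apart in the values below. In a bulk library a smaller number of cells of a type and less RNA per cell cannot be told apart.

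Promoters are shown for 3 of the genes that differed most, since they lie on both sides of the comparison and hold the motif matches discussed with them. Ube2f had the highest difference of the group in LL3 over LL3WT cells, and Ube2t and Usp11 were among those with the lowest. Each window runs from 250 bases before to 50 bases after the RefSeq start site nearest the annotated gene start, on GRCm38.p6. Capitals mark matches to CCAAT (the CCAAT box) or TTTGAA (the cell cycle genes homology region, CHR), searched on both strands.
Ube2f promoter (chr1:91250054-91250353, plus strand): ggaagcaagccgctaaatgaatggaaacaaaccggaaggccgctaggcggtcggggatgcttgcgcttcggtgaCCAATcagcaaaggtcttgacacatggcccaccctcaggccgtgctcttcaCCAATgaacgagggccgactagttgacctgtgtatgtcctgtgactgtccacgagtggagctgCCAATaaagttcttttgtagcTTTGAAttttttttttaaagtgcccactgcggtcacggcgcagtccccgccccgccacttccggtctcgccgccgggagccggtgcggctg
Ube2t promoter (chr1:134962315-134962614, plus strand): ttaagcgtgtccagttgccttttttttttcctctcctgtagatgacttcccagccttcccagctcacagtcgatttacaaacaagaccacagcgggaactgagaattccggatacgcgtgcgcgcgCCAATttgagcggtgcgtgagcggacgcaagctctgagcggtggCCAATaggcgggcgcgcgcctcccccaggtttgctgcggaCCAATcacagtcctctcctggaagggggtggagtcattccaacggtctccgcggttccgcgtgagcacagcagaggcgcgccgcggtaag
Usp11 promoter (chrX:20703659-20703958, plus strand): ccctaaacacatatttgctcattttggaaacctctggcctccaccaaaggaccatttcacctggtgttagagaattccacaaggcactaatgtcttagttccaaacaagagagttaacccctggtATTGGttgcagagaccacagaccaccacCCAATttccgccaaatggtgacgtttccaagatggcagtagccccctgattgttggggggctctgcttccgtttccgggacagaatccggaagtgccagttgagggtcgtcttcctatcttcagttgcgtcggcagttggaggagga
The windows of Ube2f and Ube2t each hold 3 CCAAT matches on the plus strand. In Ube2t the matches begin at -124, -80 and -40 from the start site, and in Ube2f at -176, -125 and -62. The Usp11 window holds 2 matches, of which 1 is on the other strand and reads ATTGG. The Ube2f window also holds TTTGAA, at -41. Promoters were available for 5 lower and 3 higher genes past the 2-fold rule given further on. CCAAT was found in 2 of the 5 and 1 of the 3, which are the windows printed here. TTTGAA was found in 1 of the 5, Usp40 (at -240, not printed), and 1 of the 3, Ube2f. So the same letters stood before a gene that was higher and genes that were lower in LL3 cells.

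CCAAT was found in 14 of the 66 promoters matched to a measured gene of the group (21.2%), against 37.4% of all 32851 RefSeq promoters of that length. The 66 hold 1 promoter per measured gene, while the 32851 hold every listed promoter without regard to level. The shares in this paragraph are therefore not like for like. TTTGAA was found in 5 of the 66 (7.58%), against 17.9% of all promoters. The E2F motif TTTCCCGC was found in 2 of the 66 (3.03%), against 1.07%, and the interferon-stimulated response element, spelled as GAAA, any 2 bases and GAAA, in 1 (1.52%), against 3.44%. None of the E2F or interferon motif matches lay in the 8 available promoters of genes past the 2-fold rule. These matches overlapped no other motif in the printed windows and describe letters, not binding.

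Of the 104 genes, 85 had a mean of at least 1 RPKM over both libraries and are called measured. A gene was called higher or lower where the difference of log2(RPKM + 1), LL3 minus LL3WT, reached 1 in size, which is a 2-fold rule. By that rule 3 of the 85 were higher in LL3 cells (3.53%), against 14.8% of all 12609 measured genes, and 8 were lower (9.41%), against 15.9%. In either direction 12.9% of the group passed the rule, against 30.7% of all measured genes. The median difference was -0.24 in the group and -0.17 over all measured genes, and 63.5% of the group lay below 0, against 58.8% of all measured genes. Read by its own background, the group therefore held fewer called genes than the table as a whole, and its median lay close to that of all genes. With TMM scaling, which moved the median of all genes up by 0.20, the group median was -0.05, and the counts were 3 higher and 5 lower, against 17.3% higher and 12.3% lower over all measured genes.

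**Figure D1:**
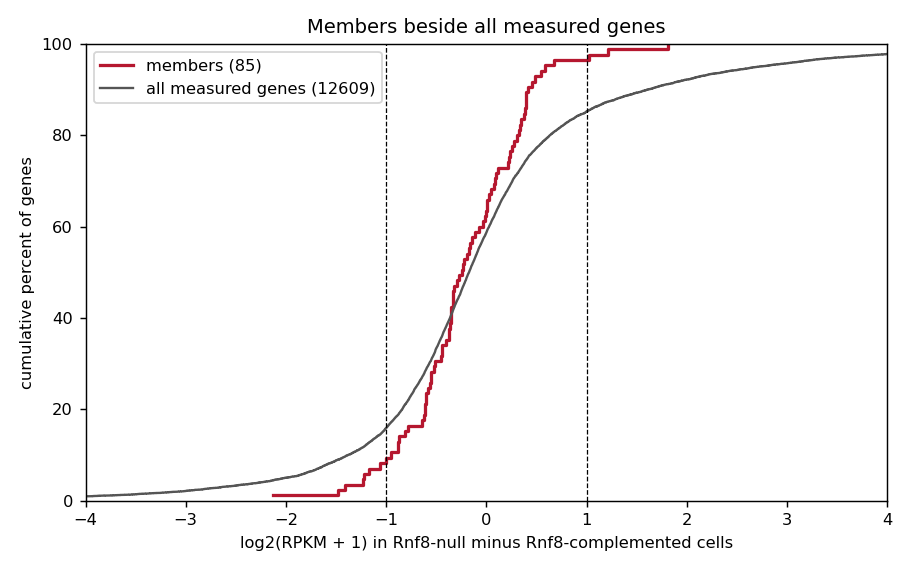
Cumulative percent of genes (vertical axis) by the difference of log2(RPKM + 1), Rnf8-null minus Rnf8-complemented (horizontal axis, shown from -4 to 4), for the 85 measured genes of the group (red) and all 12609 measured genes (grey). Dashed lines mark the 2-fold rule. The red line is steeper: 12.9% of the group lies beyond the dashed lines, against 30.7% of all genes.

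The genes past the rule were few and belonged to separate branches of the system. Higher in LL3 cells were Ube2f, Ube2q2 and Usp6nl. Lower were the E2 genes Ube2o and Ube2t and the deubiquitinase genes Usp1, Usp9x, Usp11, Usp36, Usp40 and Uchl5. For all 11 the counting interval of the RPKM ratio lay beyond 2-fold. On the lower side the genes just inside the rule were Usp36 (-1.001), Usp40 (-1.06) and Usp9x (-1.17), and those just outside were Usp20 (-0.95), Otud4 (-0.89) and Usp21 (-0.88). On the higher side a gap separated Usp6nl (1.02) from Ube2h (0.67), Usp27x (0.59) and Usp3 (0.54). With TMM scaling Usp9x, Usp36 and Usp40 no longer passed the rule.

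**Figure D2:**
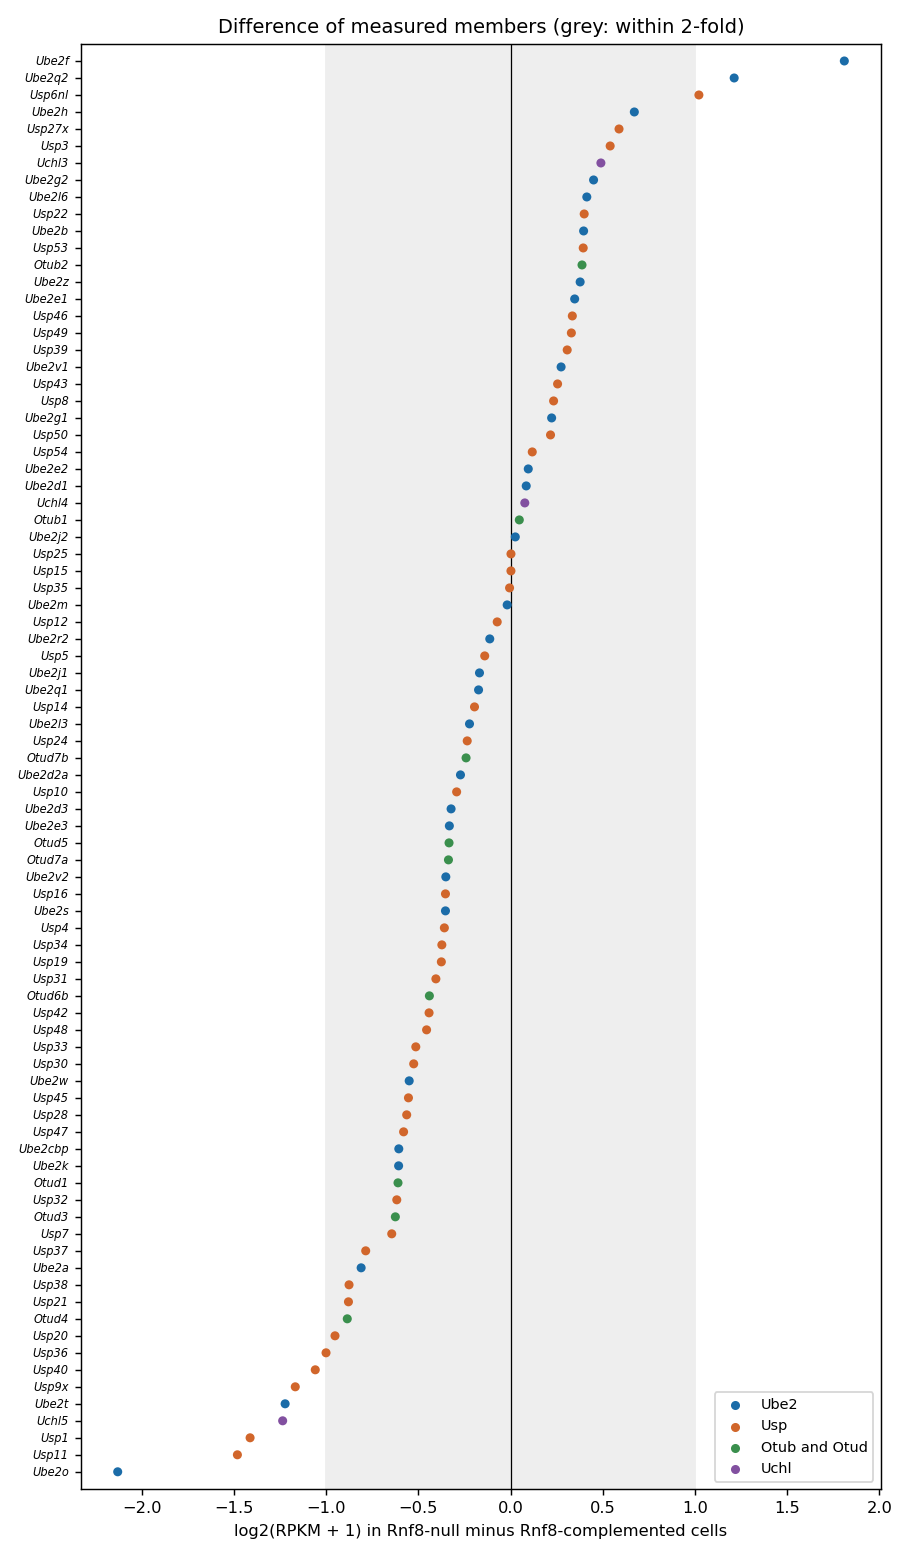
Difference of log2(RPKM + 1), Rnf8-null minus Rnf8-complemented, for all but 1 of the 85 measured genes, ordered from the highest at the top, with 1 library per form and no error bars. The grey band marks differences within 2-fold. Ube2f (1.81) and Ube2o (-2.13) are the ends of the range, and 53 of the 85 genes lie within 0.5 of 0.

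The E2 family was divided evenly. Of 30 measured Ube2 genes 2 were higher (6.67%, against 14.8% of all measured genes) and 2 lower (6.67%, against 15.9%). A difference above 0 was found in 13 and below 0 in 17 (56.7%, against 58.8%), and the median difference was -0.07. With TMM scaling that median was 0.15, with 12 of the 30 below 0. The summed level of all Ube2 genes was 1250 RPKM in LL3 and 1244 RPKM in LL3WT cells, a ratio of 1.01. Of 43 measured Usp genes 1 was higher (2.33%, against 14.8% of all measured genes) and 5 lower (11.6%, against 15.9%). A difference below 0 was found in 29 of them (67.4%, against 58.8%), and the median was -0.36. With TMM scaling 1 was higher and 2 lower, against 17.3% higher and 12.3% lower over all measured genes. On that scale 25 of the 43 Usp genes lay below 0 and their median was -0.15. Their summed level was 479 RPKM in LL3 and 565 RPKM in LL3WT cells, a ratio of 0.847. Of 9 measured Otub and Otud genes 0 passed the rule in either direction, against 30.7% of all measured genes. Their median was -0.34, with 7 below 0 (77.8%, against 58.8%), and 7 were also below 0 with TMM scaling. Of 3 measured Uchl genes 1, Uchl5, was lower (33.3%, against 15.9%), too few genes to compare shares.

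The 10 genes with the highest mean RPKM over both libraries lay within 2-fold. Of these 9 were E2 genes, and the 10 differences ran from -0.35 to 0.41. Ube2f, which passed the rule, came next in order, with a mean of 48.3 RPKM against 48.4 RPKM for Ube2z. Ube2s, whose E2 extends chains for the anaphase-promoting complex, stood at 159.9 RPKM in LL3 and 204 RPKM in LL3WT cells. The span of its gene overlaps the ribosomal protein gene Rpl28 on the other strand (53350 reads in LL3 and 34776 in LL3WT cells). Whether their counted bases are shared was not checked and the use of strand is not known, so its level is uncertain. Ube2d2a and Ube2d3, E2s that serve many ligases, had 80.1 and 51.6 RPKM in LL3 cells, against 96.9 and 64.8 RPKM in LL3WT cells. Otub1, a deubiquitinase that also blocks UBE2N by binding it, had 69.9 RPKM in LL3 and 67.6 RPKM in LL3WT cells, a ratio of 1.03 (interval 0.998 to 1.07). Ube2z, an E2 charged by the second ubiquitin E1, UBA6, was the tenth at 54.9 RPKM in LL3 and 42.0 RPKM in LL3WT cells.

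**Figure D3:**
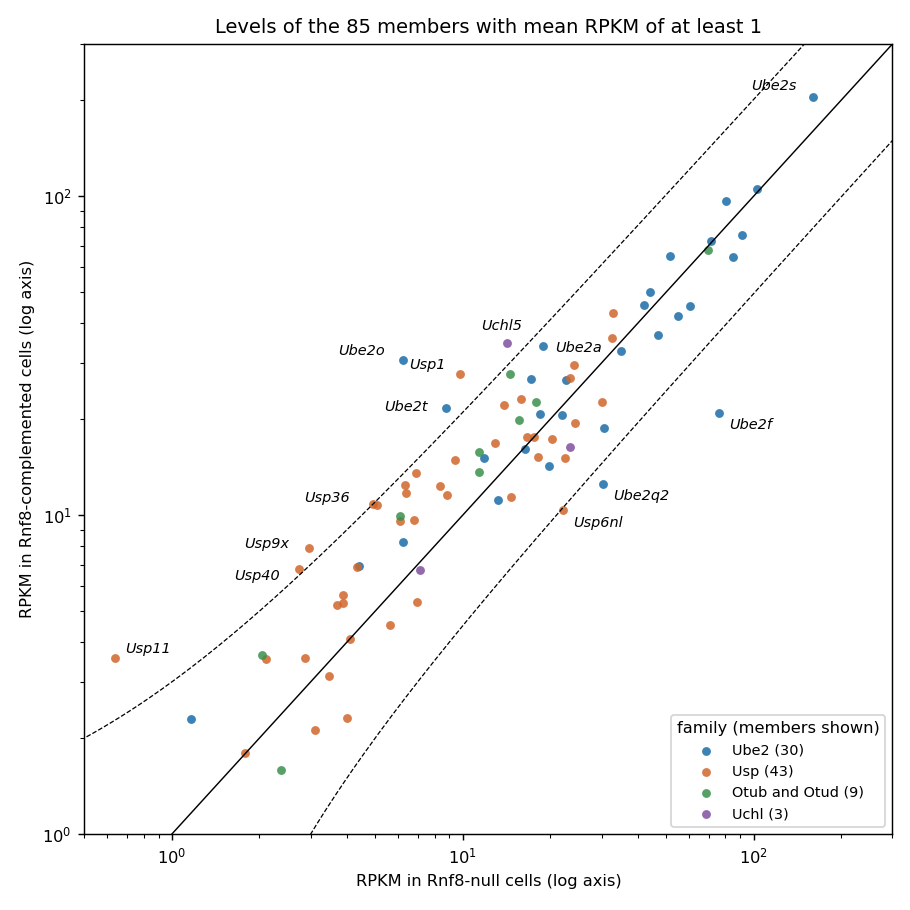
RPKM of each of the 85 measured genes in Rnf8-null (LL3) cells (horizontal log axis) and Rnf8-complemented cells (vertical log axis), coloured by family. The solid line marks equal levels and the dashed lines the 2-fold rule on the log2(RPKM + 1) scale, which widens at low levels. The 10 genes with the highest mean lie between the dashed lines, and Ube2f (75.8 RPKM in Rnf8-null and 20.9 RPKM in Rnf8-complemented cells) and Ube2o (6.22 RPKM in Rnf8-null and 30.6 RPKM in Rnf8-complemented cells) lie far from it.

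Among the E2s of ubiquitin-like modifiers, the NEDD8 branch held the highest difference of the group. Ube2f (chromosome 1, 91250304 to 91290337, GRCm38), 1 of the NEDD8 E2s, had 75.8 RPKM (8807 reads) in LL3 and 20.9 RPKM (2061 reads) in LL3WT cells. That was 3.63-fold higher in LL3 cells (interval 3.46 to 3.81). Ube2m, the other NEDD8 E2, had 71.4 RPKM in LL3 and 72.3 RPKM in LL3WT cells, a ratio of 0.987 (interval 0.953 to 1.02). Ube2f thus made up 51.5% of the summed NEDD8 E2 level in LL3 and 22.4% in LL3WT cells. Uba3, the catalytic subunit of the NEDD8 E1 and not a member of the group, was lower, at 40.7 RPKM in LL3 and 198 RPKM in LL3WT cells, and its partner subunit gene Nae1 had 22.2 RPKM in LL3 and 29.7 RPKM in LL3WT cells. Of the 13 measured genes within 1 megabase of Ube2f, 3 were higher and 1 was lower, and their median was -0.13. Over all measured genes 14.8% were higher and 15.9% lower. The part of the chromosome region in the level of Ube2f was not tested.

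Ube2l6, the E2 of the interferon-induced modifier ISG15, had 60.5 RPKM in LL3 and 45.2 RPKM in LL3WT cells, a ratio of 1.34 (interval 1.28 to 1.40). It lay within 2-fold while 18 of 20 listed interferon-stimulated genes were higher in LL3 cells, with a summed level of 856 RPKM in LL3 and 35.3 RPKM in LL3WT cells. Uba7, the ISG15 E1 and 1 of those listed genes, had 2.48 RPKM in LL3 and 0.342 RPKM in LL3WT cells, 7.26-fold higher in LL3 (interval 6.11 to 8.67). RNA levels of the E1 and E2 genes for the same modifier therefore differed between the forms by unequal amounts.

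Among E2s that build ubiquitin chains, the lowest gene of the group was Ube2o (chromosome 11, 116537740 to 116581447). It encodes a large enzyme that acts as both E2 and ligase and that tags unassembled ribosomal proteins in maturing red cells. Ube2o had 6.22 RPKM (5.94 to 6.50, 1887 reads) in LL3 and 30.6 RPKM (29.9 to 31.3, 7884 reads) in LL3WT cells, 4.92-fold lower in LL3 (interval 4.68 to 5.18). Of 46 measured genes within 1 megabase 6 were higher and 7 were lower, and their median was -0.32. Ube2q2 (chromosome 9, 55148854 to 55207529) had 30.3 RPKM (29.5 to 31.1) in LL3 and 12.5 RPKM (11.9 to 13.1) in LL3WT cells, 2.42-fold higher in LL3 (interval 2.30 to 2.56). Its relative Ube2q1 had 44.1 RPKM in LL3 and 49.9 RPKM in LL3WT cells, so Ube2q2 made up 40.7% of the pair in LL3 and 20.03% in LL3WT cells. Ube2h had 30.6 RPKM in LL3 and 18.8 RPKM in LL3WT cells and stayed within the rule. Of 13 measured E2s in this role group 1 was higher (7.69%, against 14.8% of all measured genes) and 1 lower (7.69%, against 15.9%). Their median was -0.17, and it was 0.05 with TMM scaling.

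Ube2l3, an E2 for RING-between-RING and HECT ligases, had 22.6 RPKM in LL3 and 26.6 RPKM in LL3WT cells. It overlaps Ydjc on the other strand (2139 reads in LL3 and 2093 in LL3WT cells), so its level is uncertain. The Ube2d and Ube2e subfamilies, whose members are nearly alike in sequence and can share reads, also lay within 2-fold. Ube2d1 had 22.0 RPKM in LL3 and 20.7 RPKM in LL3WT cells, Ube2e1 had 47.1 RPKM in LL3 and 36.8 RPKM in LL3WT cells, and Ube2e3 had 11.8 RPKM in LL3 and 15.1 RPKM in LL3WT cells. Of 6 genes of endoplasmic reticulum degradation 0 passed the rule, against 30.7% of all measured genes. Their differences ran from -0.61 for Ube2k to 0.45 for Ube2g2, and the membrane-anchored Ube2j1 and Ube2j2 stood at 18.4 and 16.4 RPKM in LL3 and at 20.8 and 16.1 RPKM in LL3WT cells.

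Enzymes of chromatin and the DNA damage response, where RNF8 acts, had 0 of 17 measured genes higher and 2 lower, Usp1 and the X-linked Usp11. These were 11.8% of the group, against 15.9% lower and 14.8% higher over all measured genes, and its median was -0.35, against -0.17. Of the 17, 9 lay below 0 (52.9%, against 58.8%). With TMM scaling 9 were also below 0, and the median was -0.15. Usp1 (chromosome 4, 98923810 to 98935543), which removes ubiquitin from FANCD2 and PCNA, had 9.78 RPKM (9.37 to 10.2) in LL3 and 27.7 RPKM (26.9 to 28.5) in LL3WT cells, 2.83-fold lower in LL3 (interval 2.69 to 2.98). Ube2t (chromosome 1, 134962565 to 134974162), the E2 that puts ubiquitin on FANCD2 and the lower gene among 4 measured in the cell cycle group, had 8.75 RPKM (8.05 to 9.48) in LL3 and 21.7 RPKM (20.6 to 23.0) in LL3WT cells, 2.49-fold lower in LL3 (interval 2.25 to 2.75). RNA of both genes, for the enzymes that add and remove this mark, was thus lower in LL3 cells. Protein levels were not measured. Wdr48, the activating partner of USP1, is among the 4 listed deubiquitinase cofactors. All 4 lay within 2-fold, too few genes to compare with the 30.7% of all measured genes past the rule.

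Genes of the dividing cell differed between the same libraries. Of 20 listed G2 and M phase genes 19 were lower and 0 higher in LL3 cells, with summed levels of 233 RPKM in LL3 and 781 RPKM in LL3WT cells. Of 20 genes of S phase, 13 were lower in LL3 cells and none was higher, with sums of 402 RPKM in LL3 and 856 RPKM in LL3WT cells. Ube2t and Usp1 were lower in LL3 cells beside these lists. Usp37, a deubiquitinase of cyclin A, was within 2-fold at 6.40 RPKM in LL3 and 11.7 RPKM in LL3WT cells. The other measured genes of the cell cycle group, Ube2s (-0.35) and Ube2e1 (0.35), were also within 2-fold. Thus 1 of the 4 passed the rule (25%, against 30.7% of all measured genes). The part of cell division in the lower levels of Ube2t and Usp1 was not tested.

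Deubiquitinases that act on histone H2A or on the break itself lay on both sides of 0. Usp3 had 22.4 RPKM in LL3 and 15.1 RPKM in LL3WT cells, a ratio of 1.48 (interval 1.40 to 1.58). Usp16 had 8.82 RPKM in LL3 and 11.5 RPKM in LL3WT cells, a ratio of 0.764 (interval 0.717 to 0.814). It overlaps Cct8 on the other strand (16202 reads in LL3 and 19880 in LL3WT cells), so its level is uncertain. Usp48 had 6.79 RPKM in LL3 and 9.67 RPKM in LL3WT cells. Usp44, a deubiquitinase known to oppose RNF8 in human cells and to guard the mitotic checkpoint, lay under the filter with 4 reads in LL3 and 171 reads in LL3WT cells. Usp51, which acts on H2A marks at breaks, had 0 reads in LL3 and 2 in LL3WT cells, too few to compare. Usp22, the deubiquitinase of the SAGA complex, had 30.1 RPKM in LL3 and 22.6 RPKM in LL3WT cells, and Usp27x, its relative, had 3.99 RPKM in LL3 and 2.32 RPKM in LL3WT cells. Usp7, which stabilizes MDM2, had 13.8 RPKM in LL3 and 22.2 RPKM in LL3WT cells.

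The E2 variants that pair with UBE2N were unequal in abundance in both forms. Ube2v1 had 91.5 RPKM in LL3 and 75.5 RPKM in LL3WT cells, and Ube2v2 had 6.25 RPKM in LL3 and 8.24 RPKM in LL3WT cells, so Ube2v1 made up 93.6% of the pair in LL3 and 90.2% in LL3WT cells. The Rad6 E2s Ube2a and Ube2b, which act with RAD18 at stalled forks and with RNF20 on histone H2B, differed in balance. Ube2a had 18.8 RPKM in LL3 and 33.8 RPKM in LL3WT cells, and Ube2b had 84.9 RPKM in LL3 and 64.2 RPKM in LL3WT cells. The summed level was 103.7 RPKM in LL3 and 98.0 RPKM in LL3WT cells, but Ube2a made up 18.2% of it in LL3 and 34.5% in LL3WT cells. The 2 proteins are nearly identical, and Ube2a overlaps another gene on the other strand (2608 reads in LL3 and 4710 in LL3WT cells), so its level is uncertain.

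**Figure D4:**
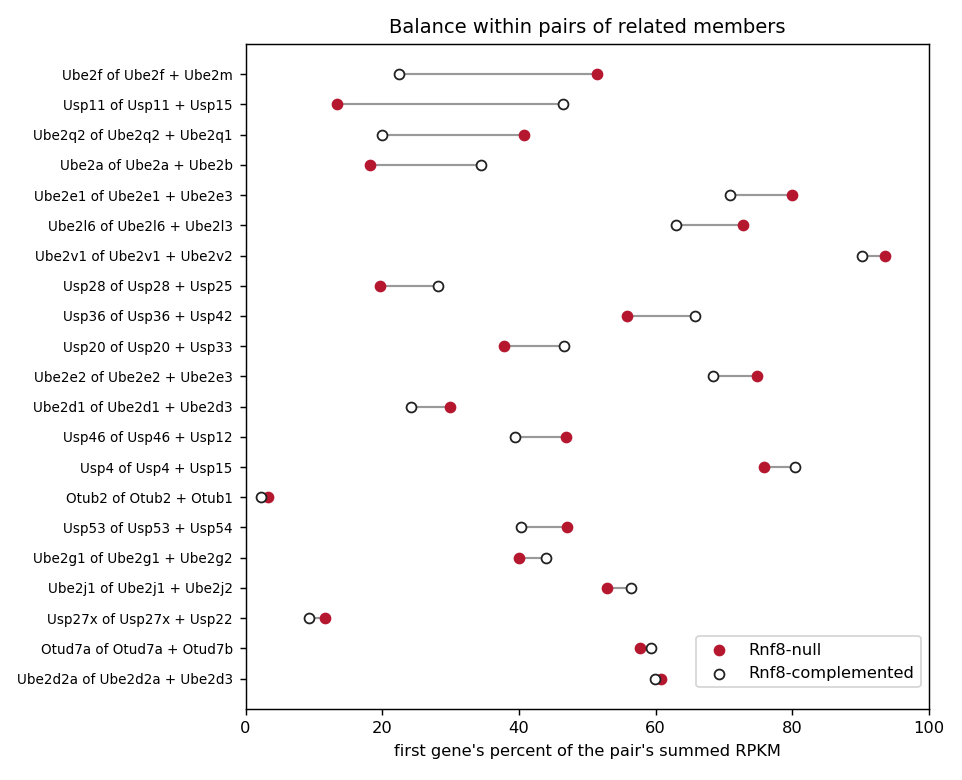
For 21 pairs of related genes, the percent of the pair's summed RPKM taken by the first-named gene in Rnf8-null (red) and Rnf8-complemented cells (open). Pairs are ordered by the gap between their log2 differences. The top 4 pairs, led by Ube2f with Ube2m (51.5% in Rnf8-null and 22.4% in Rnf8-complemented cells), have gaps of at least 1, and 12 pairs have gaps under 0.5.

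Of 21 pairs of related genes compared in this way, 4 had log2 differences at least 1 apart, namely Ube2f and Ube2m, Usp11 and Usp15, Ube2q2 and Ube2q1, and Ube2a and Ube2b. The median gap was 0.43. In 0 pairs did the genes lie more than 0.5 from 0 on opposite sides. In 3 of these pairs 1 gene passed the 2-fold rule and its partner did not, while Ube2a and Ube2b both stayed within it.

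Chromosome X held 10 of the genes, of which 5 were measured. Usp11 (X, 20703906 to 20720539), which acts on BRCA2 and PALB2 complexes, had 0.635 RPKM (191 reads) in LL3 and 3.57 RPKM (910 reads) in LL3WT cells, 5.61-fold lower in LL3 (interval 4.80 to 6.60). Usp9x (X, 13071498 to 13173328), which removes ubiquitin from MCL1 and SMAD4, had 2.96 RPKM in LL3 and 7.88 RPKM in LL3WT cells, 2.67-fold lower in LL3 (interval 2.54 to 2.80). The other measured X-linked genes were Ube2a (-0.81), Otud5 (-0.33) and Usp27x (0.59), so 4 of the 5 lay below 0 on the log2 scale, as did 83.3% of the other measured X-linked genes. Of 366 other measured X-linked genes 131 were lower (35.8%) and 19 were higher, and their median was -0.72, against a median of -0.16 over 11666 autosomal genes. Xist, the RNA that coats the inactive X chromosome, had 10 reads in LL3 and 17021 reads in LL3WT cells. The part of the X chromosome in the levels of Usp11 and Usp9x was not tested. Of the 80 measured autosomal genes of the group 3 were higher (3.75%, against 15.1% of all measured autosomal genes). Another 6 were lower (7.5%, against 15.4%), and the median of the 80 was -0.23.

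Usp4 and Usp15, the close relatives of Usp11, lie on autosomes. Usp4 had 12.9 RPKM in LL3 and 16.9 RPKM in LL3WT cells. Usp15, a regulator of TGF-beta receptor signalling, had 4.11 RPKM in LL3 and 4.10 RPKM in LL3WT cells, a ratio of 1.002 (interval 0.940 to 1.07). Usp11 and Usp15 were thus near in level in LL3WT cells, and in LL3 cells Usp11 was well below both relatives.

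Of the proteasome and ubiquitin recycling enzymes, Uchl5 alone of the 4 measured passed the rule (25%, against 30.7% of all measured genes). Uchl5 (chromosome 1, 143777272 to 143807466), a deubiquitinase of the proteasome's regulatory particle and of the INO80 remodeller, had 14.2 RPKM (13.5 to 14.9) in LL3 and 34.7 RPKM (33.5 to 35.9) in LL3WT cells, 2.45-fold lower in LL3 (interval 2.31 to 2.60). Usp14, the other proteasome-bound cysteine deubiquitinase, had 23.4 RPKM in LL3 and 26.9 RPKM in LL3WT cells, a ratio of 0.869 (interval 0.839 to 0.899). It overlaps Thoc1 on the other strand (2562 reads in LL3 and 3869 in LL3WT cells), so its level is uncertain. Adrm1, the receptor that recruits UCHL5 to the proteasome, is another of the cofactors within 2-fold. Usp5, which takes apart free chains, had 32.5 RPKM in LL3 and 36.0 RPKM in LL3WT cells, and Uchl3 had 23.3 RPKM in LL3 and 16.3 RPKM in LL3WT cells. Uchl4, at 7.15 RPKM in LL3 and 6.73 RPKM in LL3WT cells, is a near copy of Uchl3 and lies within Map2k1 on the other strand, so its level is uncertain.

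Uchl1, a neuronal and neuroendocrine ubiquitin hydrolase (chromosome 5, 66676091 to 66687234), lay just under the filter. It had 0 reads in LL3 cells, with an exact upper limit of 0.0485 RPKM, and 125 reads or 1.94 RPKM (1.61 to 2.31) in LL3WT cells. A floor of 3 reads would stand at 0.0395 RPKM in LL3 cells. The LL3WT level was 49.1 times that floor, a ratio that leaves out counting error. By the exact counting limit of the ratio, Uchl1 was at least 39.3-fold lower in LL3 cells. The antisense Uchl1os had 3 reads in LL3 and 2 in LL3WT cells.

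**Figure D5:**
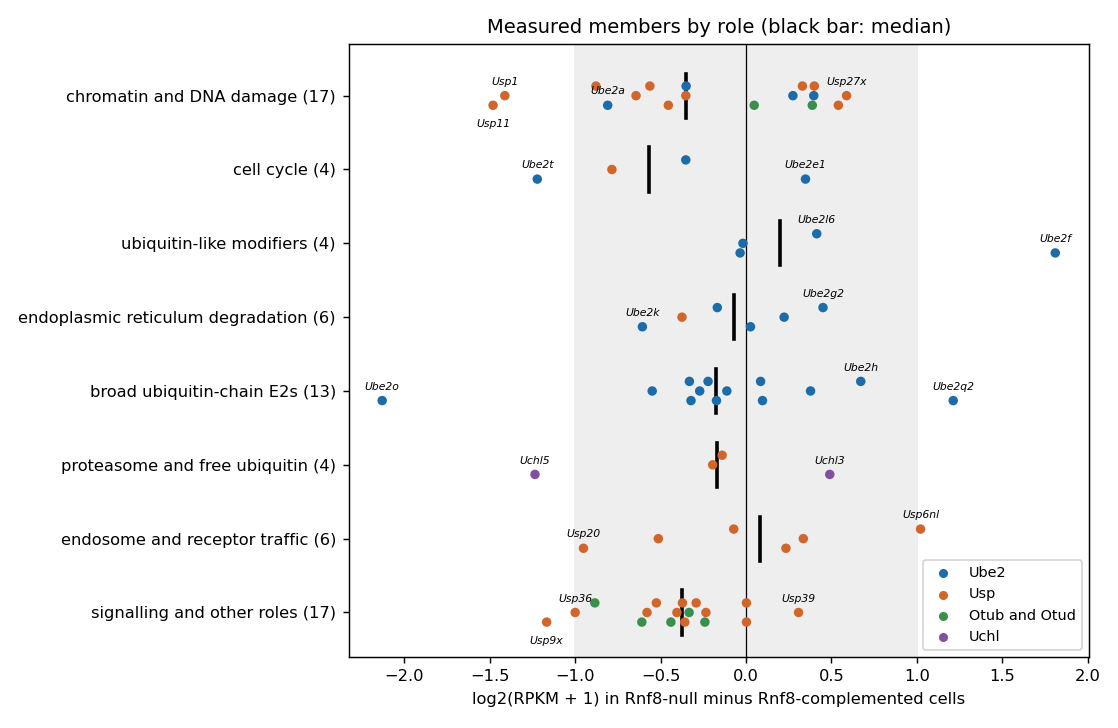
Difference of log2(RPKM + 1), Rnf8-null minus Rnf8-complemented, for the measured genes in 8 role groups (number of genes in brackets), each point 1 gene coloured by family. Black bars are group medians and the grey band marks differences within 2-fold. Ube2f (1.81) and Ube2o (-2.13) stand apart within their groups, and 14 of the 17 signalling genes lie below 0 (82.4%, against 58.8% of all measured genes).

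Among genes of endosome and receptor traffic, Usp6nl (chromosome 2, 6322667 to 6446390), whose product slows uptake of the EGF receptor through RAB5, had 22.0 RPKM in LL3 and 10.3 RPKM in LL3WT cells, 2.13-fold higher in LL3 (interval 2.03 to 2.23). It is not a deubiquitinase. Usp8, which acts on receptors at the endosome, had 18.1 RPKM in LL3 and 15.2 RPKM in LL3WT cells. It overlaps Usp50 on the other strand, so its level is uncertain. Usp20 and Usp33, which act on recycling receptors, had 5.06 and 8.33 RPKM in LL3 and 10.7 and 12.3 RPKM in LL3WT cells.

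The group of signalling and other roles had 0 of 17 genes higher, against 14.8% of all measured genes, and 2 lower, with a median of -0.37. The lower genes made up 11.8% of it, against 15.9% of all measured genes, and 14 lay below 0 (82.4%, against 58.8%). With TMM scaling 14 were also below 0, and the median was -0.19. Besides Usp9x, the lower gene was Usp36 (chromosome 11, 118259651 to 118290244), a nucleolar deubiquitinase that stabilizes MYC, at 4.91 RPKM in LL3 and 10.8 RPKM in LL3WT cells, 2.20-fold lower in LL3 (interval 2.09 to 2.33). Otud4 had 14.6 RPKM in LL3 and 27.7 RPKM in LL3WT cells, just within the rule. Usp25 was level at 17.6 RPKM in LL3 and 17.5 RPKM in LL3WT cells, as was Usp15, while its relative Usp28, which binds 53BP1, had 4.32 RPKM in LL3 and 6.86 RPKM in LL3WT cells. Usp39, a splicing factor without protease activity, had the highest difference of these 17, at 24.3 RPKM in LL3 and 19.5 RPKM in LL3WT cells. Of the 14 measured genes with no role assigned, 1 was lower (7.14%, against 15.9%), namely Usp40 (chromosome 1, 87945119 to 88008551). Usp40 had 2.74 RPKM in LL3 and 6.78 RPKM in LL3WT cells, 2.48-fold lower in LL3 (interval 2.31 to 2.66). Its end overlaps Dgkd on the other strand (8038 reads in LL3 and 5398 in LL3WT cells), so its level is uncertain. Of 18 measured genes within 1 megabase of Usp40, 9 were lower and 2 were higher, and their median was -0.84.

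The remaining 19 genes lay under the filter, with at most 238 reads in a library. Of these 11 had no more than 10 reads in either library, and Ube2dnl1 and Ube2dnl2 had 0 in both. The 5 Usp17l genes, a repeated family whose members can share reads, summed to 58 reads in LL3 and 230 in LL3WT cells. Usp13 had 238 reads in LL3 and 116 in LL3WT cells. Usp2 had 202 in LL3 and 236 in LL3WT cells, and Ube2d2b had 58 in LL3 and 79 in LL3WT cells. The Y-linked Usp9y had 10 reads in LL3 and 0 in LL3WT cells, while the Y-linked Uty had 12 reads in LL3 and 29 in LL3WT cells and Eif2s3y 0 in both.

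Of the other ubiquitin pathway genes listed for comparison, 49 of 54 were found in the table and all 49 were measured. In LL3 cells 1 was higher (2.04%), Uba7, and 4 were lower (8.16%), namely Uba3, Atg3, Ufc1 and Cyld, against 14.8% higher and 15.9% lower over all measured genes. Their median difference was -0.26. Ufc1, the E2 of the modifier UFM1, had 48.1 RPKM in LL3 and 114 RPKM in LL3WT cells, and Atg3, the E2-like enzyme of autophagy, had 9.75 RPKM in LL3 and 21.6 RPKM in LL3WT cells. Cyld, a deubiquitinase that limits NF-kB signalling, had 3.44 RPKM in LL3 and 7.89 RPKM in LL3WT cells. The main ubiquitin E1, Uba1, had 106 RPKM in LL3 and 148 RPKM in LL3WT cells. The 4 ubiquitin genes summed to 5438 RPKM in LL3 and 6167 RPKM in LL3WT cells. Of these 0 passed the rule, against 30.7% of all measured genes, also too few to compare shares. None of the 7 SUMO and NEDD8 proteases passed the rule, against 30.7% of all measured genes. All 7 lay below 0, against 58.8% of all measured genes, and 6 of the 7 did so with TMM scaling. These are too few genes to compare shares.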

How the data were processed

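RNA was sequenced from 2 mouse mammary tumour cell forms with 1 library each. Per the labels' protocols, total RNA was column-purified and libraries were of the Illumina TruSeq kind. Tools named in the submitters' processing notes were DESeq2, bedtools, SAMtools 0.1.18 and STAR 2.4.0f1, and the build was GRCm38. The sources used here do not give the counting tool, the annotation or the use of strand. Per the file headers, the authors deposited raw counts per gene and RPKM. Each RPKM equalled the count scaled by the library total and a whole-number gene length, to within 1.35e-08 bases. Columns were matched by sample title.

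Log2(RPKM + 1) differences were computed with a filter of a mean of at least 1 RPKM, exact Poisson limits for levels and Clopper-Pearson limits for ratios (SciPy 1.17.1). Without molecular identifiers, reads need not stand for separate molecules. Scaling alternatives used edgeR 4.0.16 and DESeq2 1.42.0 in R 4.3.3. Interval code was tested on simulated data. Positions come from GENCODE vM21, and promoters from RefSeq (GRCm38.p6), which matched 83 genes of the group. Overlaps between genes were taken from whole gene spans, not exons. Another gene with reads overlapped 18 of the measured genes, 17 of them on the other strand. The levels of all 18 are uncertain to that extent, including those of Ube2d3, Ube2e1, Ube2g2 and Usp37. Values are given for all genes past the 2-fold rule, the 10 most abundant, the extremes of each role, those beside the threshold, and pairs of related genes. Other genes of the group may be named, and 1 is counted but not reported by name here. The members and lists were chosen with earlier results of these data known. Role groups and pairs come from background knowledge and were written down with the files at hand.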

Additional observations from a re-analysis of the deposited data

How the results depend on the processing

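The group median, -0.24, was below 0 under all alternatives run. It was -0.049 with TMM scaling and -0.038 with median-of-ratios size factors, since these raised the median of all genes by 0.20 and 0.21. The count of lower genes, 8 (9.41%, against 15.9% of all measured genes), was 5 under both scalings, which left out Usp9x, Usp36 and Usp40. Those 5 were 5.88%, against 12.3% of all measured genes with TMM scaling and 12.2% with median-of-ratios size factors. The count was 3 with a pseudocount of 5 RPKM (3.53%, against 8.05%), which by its construction shrinks the differences of low genes. A 1.5-fold rule gave 5 higher and 20 lower genes (5.88% and 23.5%, against 21% and 29.4% of all measured genes). A 3-fold rule gave 1 and 1 (1.18% each, against 10.2% and 8.03%). Ube2f and Ube2q2 were called higher, and Ube2o, Usp1 and Uchl5 lower, under each alternative of pseudocount, filter and scaling. Usp6nl lost its call with a pseudocount of 5 RPKM and with library totals that left out the 10 genes with most reads. Usp20 was called lower with a pseudocount of 0.1 RPKM and by the RPKM ratio. Removing short models and pseudogenes left out no measured gene of the group. Leaving out the X-linked genes, an alternative added after seeing the data, gave 3 higher and 6 lower (3.75% and 7.5%, against 14.8% and 15.9%). No paired analysis was possible because each form had 1 library. Low read counts limit the 19 genes under the filter, and the lack of replicates limits all values.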

Other observations

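The genes within 1 megabase of each gene past the 2-fold rule were also summarised. The 16 measured genes around Usp11 had a median difference of -0.72, with 15 below 0, and the 8 around Usp9x a median of -0.27. The 25 around Usp36 had a median of -0.45, and the 3 around Uchl5 a median of -0.51, with 1 lower. Around Ube2t (26 genes) the median was -0.09, with 10 higher and 3 lower, and around Usp1 (8 genes) it was 0.02. The 17 genes around Ube2q2 had a median of 0.27, with 3 higher and 0 lower, and the 8 around Usp6nl a median of -0.20.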
